A study of Mus musculus with 7 samples.

Results

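The genes described here encode proteins with which a cell copies its DNA and divides. There are 49 of them, 31 with roles in mitosis and 18 with roles in S phase, among 32095 genes and transcripts on the arrays. They were chosen by gene symbol, with earlier results of these data known. They were measured in nasal tissue of mice that inhaled diesel exhaust particles (DEPs). The arrays carry 63 probes for them, of which 47 probes of 39 genes were bright enough to be tested (23 mitosis genes and 16 S-phase genes). The other 10 genes were too close to the background, namely the checkpoint and chromosome-passenger kinases *Bub1*, *Bub1b*, *Ttk* and *Aurkb*, the kinetochore genes *Cenpf*, *Ndc80* and *Nuf2*, the kinesin *Kif2c*, the S-phase cyclin *Ccne2* and the origin-licensing gene *Cdc6*. Nothing is reported on the direction of these 10 genes.

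Before S phase, E2F transcription factors switch on the genes of DNA synthesis, the MCM helicase is loaded at replication origins, and PCNA then holds the polymerases on the DNA. Later in the cycle, cyclin B and Cdk1 drive the cell into mitosis, spindle and kinetochore proteins pull the chromosomes apart, and the anaphase-promoting complex with Cdc20 and Ube2c ends mitosis by marking cyclin B for destruction. Transcripts of the mitosis genes peak late in the cycle and are nearly absent from resting cells, while many S-phase transcripts last through more of it. In the nose, basal cells of the olfactory and respiratory epithelium divide throughout life and replace neurons and surface cells.

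Female BALB/c mice, 6 weeks old at the start, inhaled DEPs suspended in saline at 100 μg/m3 from an ultrasonic nebulizer for 1 hour on 5 days of each week, over 4 or 8 weeks. Control mice inhaled saline, and no genotype was altered in any group. RNA of nasal tissue with septum and turbinates was hybridised to Agilent 2-colour arrays, with DEP RNA in Cy5 and control RNA in Cy3 on all of the 7 arrays. Of these, 4 biological replicates came from 4 weeks of exposure on one slide and 3 from 8 weeks on another. Whether RNA of several mice was pooled is not given in the sources used here. Because the dyes were not swapped, an effect of the dye cannot be told apart from DEPs at either time. A dye effect that is equal on both slides drops out of the difference between the times, whereas an effect of the slide does not. The slide divides the arrays exactly as the exposure time does, and so these cannot be told apart.

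Of the 39429 probes, 18476 to 25062 on an array exceeded the background clearly with DEP RNA and 16819 to 26920 with control RNA. Saturation was not reached by any spot. Log2 ratios of DEP over control over all tested probes correlated between arrays of 4 weeks at r = 0.44 to 0.49, between arrays of 8 weeks at 0.71 to 0.88, and between the times at 0.09 to 0.29. All 11 markers of mature olfactory neurons were above background in the DEP channel of every array. Markers of cells that form enamel and dentin were measurable as well, with 7 to 9 of 9 above background in the DEP channel and 6 to 9 in the control channel. In a whole tissue, fewer dividing cells and less RNA per dividing cell cannot be told apart, and this holds for every result below.

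The design asks whether DEPs changed these genes after 4 weeks and after 8 weeks. After 4 weeks, transcripts of mitosis genes were lower in DEP-exposed tissue. Of 23 mitosis genes tested, 19 fell and 1 rose (limma, Benjamini-Hochberg adjustment over all probes, threshold 0.05). Of the 16 S-phase genes, 2 fell and 5 rose. Together 21 of 39 genes were lower (53.8%) and 6 higher (15.4%). Fitting the background on all spots left 12 lower and 3 higher, keeping only probes above background in both channels of every array left 13 lower, and 3 were higher without replicate 2 of either time. In the same comparison 16.6% of all 20636 genes and transcripts tested were lower and 21.7% higher. The median log2 ratio of the mitosis genes on the 4 arrays was -0.22, -0.37, -0.39 and -0.42, below 0 on each of them. That of the S-phase genes was 0.22, 0.14, -0.05 and 0.04, and the median over all genes lay between 0.01 and 0.04 on these arrays.

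**Figure D1:**
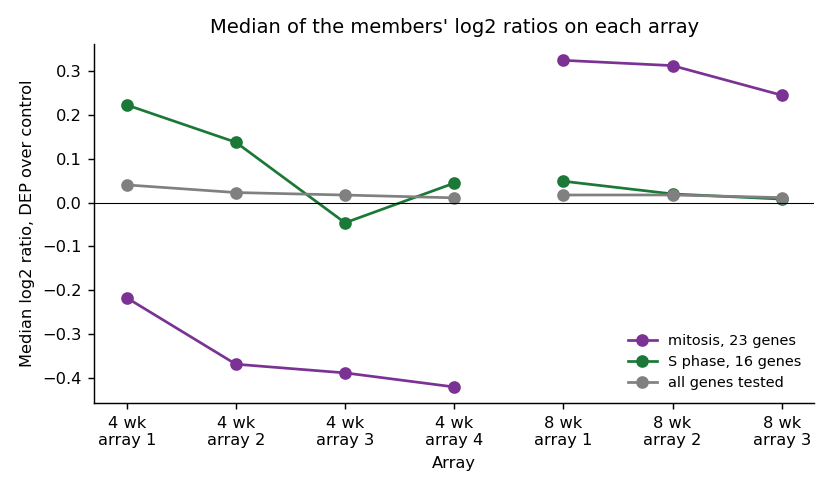
Median log2 ratio of DEP over control (vertical axis) on each of the 7 arrays (horizontal axis) for the mitosis genes, the S-phase genes and all genes tested; lines join arrays of one exposure time and have no order. The mitosis medians lie between -0.42 and -0.22 at 4 weeks and between 0.24 and 0.32 at 8 weeks, while the S-phase medians stay between -0.05 and 0.22 throughout.

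After 8 weeks the mitosis genes were higher in DEP-exposed tissue. Of 23 mitosis genes, 15 rose and 0 fell. Among these, the calls of *Kif11* and *Kif23* are not independent of the brightness filter, as described below. Of the 16 S-phase genes, *Mcm4*, a subunit of the replicative helicase, rose and 0 fell. At this time 20.4% of all genes tested were higher and 17% lower. In limma at an unadjusted p under 0.05, the count of members lower at 8 weeks was also 0, against 20 higher. The share of all genes at that threshold is not given here. Centring each array on its median in place of the loess curve gave 2 lower members at 8 weeks, *Pcna* and *Rrm1*, and array weights gave 4. The 16 higher members were 10 without replicate 2 of 8 weeks and 9 with median centring. The median log2 ratios of the mitosis genes on the 3 arrays were 0.32, 0.31 and 0.24, and those of the S-phase genes 0.05, 0.02 and 0.01.

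The direction of calls over all genes depended on the scaling more than that of the mitosis genes did. Of all calls, 56.7% were higher at 4 weeks and 54.5% at 8 weeks with loess, 42.5% and 26.9% with median centring, and 67.9% and 50.9% with the signals processed by the scanner software. Median centring moved the median of all genes to -0.04 at 4 weeks and -0.11 at 8 weeks. The mitosis counts under median centring were 19 lower and 0 higher at 4 weeks, and 0 lower and 9 higher at 8 weeks. With the processed signals they were 17 lower and 2 higher, then 0 lower and 18 higher.

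The difference between the times was tested in the same model. It was higher at 8 than at 4 weeks in 20 of the 23 mitosis genes and lower in 0, and of the S-phase genes it was higher in 1 (*Pcna*) and lower in 3 (*Mcm5*, *Mcm6* and *E2f1*). With median centring *Pcna* and *Ccna2* did not pass in this difference, and with the processed signals *Mcm2*, *Mcm3* and the mitosis gene *Tpx2* were lower as well. Of all genes tested, 14.9% were higher and 16.1% lower in this difference. In 21 of the 23 mitosis genes every array of 4 weeks lay below every array of 8 weeks, as it did in 2 of the 16 S-phase genes and in 21.1% of all genes tested. In 13 members, all of them mitosis genes, the ratio was called lower at 4 weeks and higher at 8 weeks, which 2.59% of all genes were. On single arrays the mitosis median minus the S-phase median was -0.44, -0.51, -0.34 and -0.47 at 4 weeks and 0.28, 0.29 and 0.24 at 8 weeks.

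**Figure D2:**
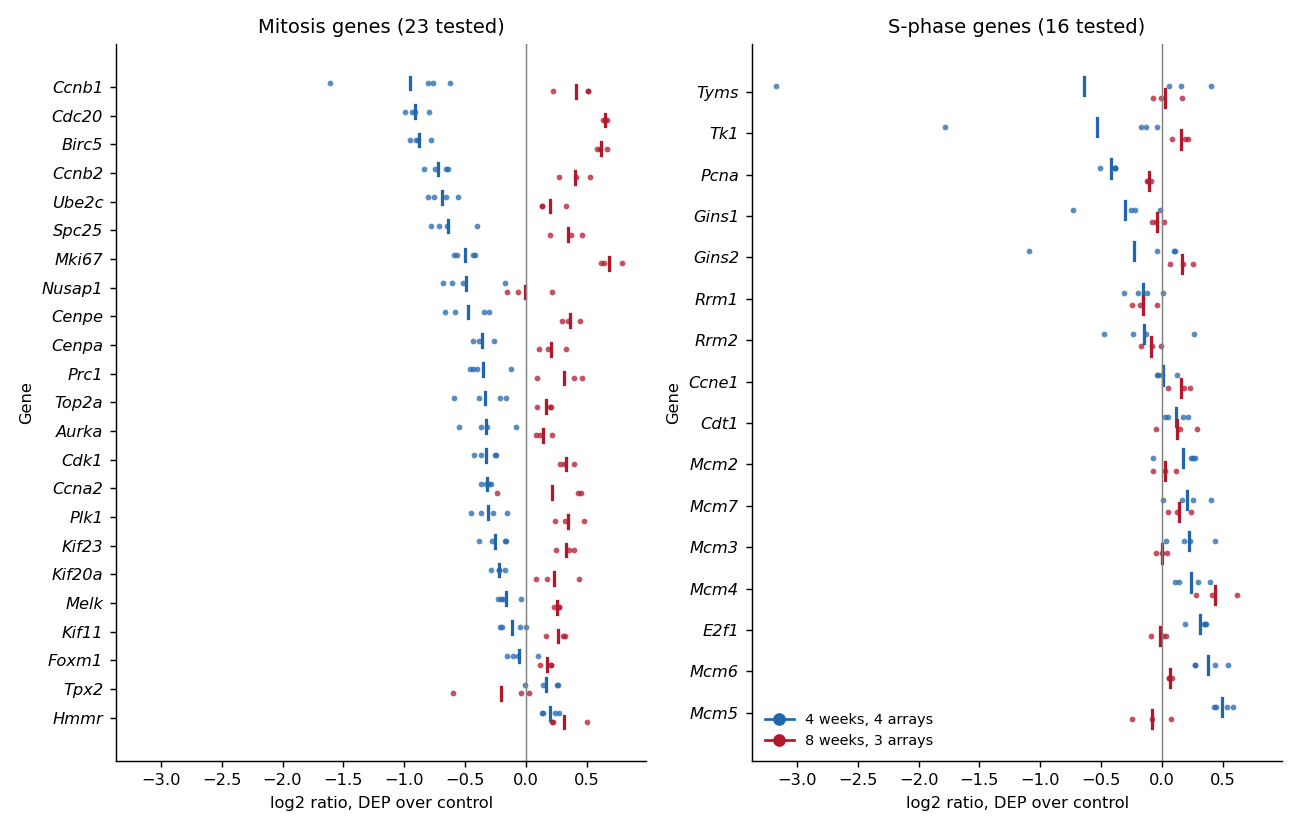
Log2 ratio of DEP over control (horizontal axis) of each of the 39 tested genes (vertical axis, ordered by the mean at 4 weeks), mitosis genes on the left and S-phase genes on the right; points are arrays and short bars are means. Most mitosis genes have their 4-week points to the left of 0 and their 8-week points to the right, while most S-phase genes lie near 0 at 8 weeks, with *Mcm4* at 0.28 to 0.62, and single arrays of *Tyms* (-3.17), *Tk1* (-1.78) and *Gins2* (-1.10) lie far to the left at 4 weeks.

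Both tested genes that end mitosis fell at 4 weeks, against 16.6% of all genes. *Cdc20*, the activator of the anaphase-promoting complex, had log2 ratios of -0.997, -0.91, -0.94 and -0.80 on the 4-week arrays and 0.64, 0.66 and 0.63 on the 8-week arrays. All 4-week arrays were low and all 8-week arrays were high, with no overlap. The mean was -0.91 ± 0.08 (SD, n = 4) at 4 weeks (adjusted p = 1.1e-05) and 0.65 ± 0.02 (SD, n = 3) at 8 weeks (adjusted p = 9.5e-05). The difference was 1.56 (standard error 0.07, adjusted p = 1.3e-05), the largest among the members with loess and with median centring. With the processed signals it was 1.797, and those of *Kif23* (2.19) and *Ccnb1* (2.02) were larger. *Ube2c*, the ubiquitin-conjugating enzyme of the same complex, had ratios of -0.66, -0.81, -0.56 and -0.76 at 4 weeks and 0.32, 0.13 and 0.13 at 8 weeks. It fell at 4 weeks (adjusted p = 0.00013), and its mean of 0.19 at 8 weeks missed the threshold (adjusted p = 0.059), which 0.34 with the processed signals passed. A further probe of *Ube2c* gave means of -0.58 and 0.22.

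Of the mitotic cyclins and their kinase, all 4 fell at 4 weeks, against 16.6% of all genes. *Ccnb2*, cyclin B2, had ratios of -0.84, -0.66, -0.75 and -0.64 at 4 weeks and 0.41, 0.52 and 0.27 at 8 weeks, and passed the test at both times (adjusted p = 9.8e-05 and 0.0030). With median centring its 8-week mean was 0.21 and did not pass (adjusted p = 0.085 in limma). *Ccnb1*, cyclin B1, had ratios of -0.63, -0.77, -1.61 and -0.81 at 4 weeks and 0.50, 0.51 and 0.22 at 8 weeks. It fell at 4 weeks with a mean of -0.95 ± 0.45 (SD, n = 4, adjusted p = 0.0024), which was -0.73 without replicate 3. At 8 weeks its mean of 0.41 missed the threshold (adjusted p = 0.10), which 0.64 with the processed signals passed, and the difference of 1.37 passed it (adjusted p = 0.0042). Its dimmer probe gave smaller means of -0.14 and 0.15. *Cdk1*, the kinase that both cyclins activate, had a mean of -0.33 at 4 weeks and 0.33 at 8 weeks at its brightest probe, and both passed the test. A dimmer probe of *Cdk1* rose at both times (0.20 and 0.29), and the remaining one did not pass at either (-0.11 and -0.51), so the probes of this gene disagree. *Ccna2*, cyclin A2, was at -0.32 at 4 weeks (adjusted p = 0.047, not passed with the processed signals) and at 0.21 at 8 weeks, where one array lay at -0.24.

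*Ccnb1*, *Ccnb2* and *Cdc20* are on the list of down-regulated genes that the study drew from these arrays, so their direction at 4 weeks is not independent of that list. In limma 0 members at either time passed the study's thresholds, which are an unadjusted p of 0.01 and a 2-fold change. Of all genes, 0.368% passed these thresholds as lower and 0.935% as higher at 4 weeks, and 0.848% and 2.1% at 8 weeks. With the processed signals 3 members passed them at 4 weeks and 1 at 8 weeks. The test that the methods name gave 0 at both times. At an unadjusted p under 0.05 alone, 22 members were lower and 8 higher at 4 weeks, and 0 lower and 20 higher at 8 weeks. The share of all genes at that looser threshold is not given here.

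At the centromere and kinetochore, all 4 genes that could be tested fell at 4 weeks and rose at 8 weeks. Of all genes, 16.6% fell at 4 weeks and 20.4% rose at 8 weeks. With median centring only *Birc5* of the 4 passed at 8 weeks (0.38), while *Spc25* (0.09), *Cenpe* (0.21) and *Cenpa* (0.19) did not. *Birc5*, survivin, a subunit of the chromosomal passenger complex, had ratios of -0.90, -0.78, -0.89 and -0.96 at 4 weeks and 0.61, 0.66 and 0.58 at 8 weeks. Its arrays lay close together at each time, with means of -0.88 ± 0.08 (SD, n = 4, adjusted p = 1.2e-05) and 0.62 ± 0.04 (SD, n = 3, adjusted p = 0.00012). Its dimmer probes gave -0.50 and -0.34 at 4 weeks, and 0.13 and 0.06, neither past the threshold, at 8 weeks. *Spc25*, a subunit of the Ndc80 complex that binds microtubules, had ratios of -0.41, -0.72, -0.65 and -0.78 at 4 weeks and 0.37, 0.46 and 0.20 at 8 weeks. *Cenpe*, a kinetochore motor, had ratios of -0.31, -0.35, -0.58 and -0.67, then 0.35, 0.44 and 0.29. *Cenpa*, the histone H3 variant of centromeres, moved less, with means of -0.36 over 3 arrays with a value at 4 weeks and 0.20 at 8 weeks.

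*Mki67*, the Ki-67 antigen, which coats mitotic chromosomes and is used to count dividing cells, had ratios of -0.42, -0.57, -0.60 and -0.44 at 4 weeks and 0.64, 0.62 and 0.79 at 8 weeks. Its mean at 8 weeks, 0.68 ± 0.09 (SD, n = 3, adjusted p = 0.00014), was the highest among the members with loess. With the processed signals it was 0.81, and those of *Kif11* (1.44), *Kif23* (1.02), *Cdk1* (0.84) and *Birc5* (0.82) were higher. The mean of *Mki67* at 4 weeks was -0.51 ± 0.09 (SD, n = 4, adjusted p = 0.00038). The other *Mki67* probe gave -0.64 and 0.36 and passed the test at both times. *Top2a*, the topoisomerase that untangles sister chromatids, had ratios of -0.22, -0.17, -0.59 and -0.39 at 4 weeks and 0.19, 0.09 and 0.21 at 8 weeks. It fell at 4 weeks (adjusted p = 0.0092), and at 8 weeks it did not pass the test (adjusted p = 0.18), except with the processed signals (0.60).

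The 3 kinases bright enough to be tested all fell at 4 weeks, against 16.6% of all genes. *Plk1*, which acts from mitotic entry to cytokinesis, had a mean of -0.31 at 4 weeks and rose to 0.34 at 8 weeks. *Melk* had -0.17 and 0.25 and passed both times, and *Aurka*, the centrosome kinase, had -0.33 and 0.14 and did not pass at 8 weeks. With median centring the 8-week means of *Plk1* (0.21) and *Melk* (0.14) did not pass, and with the processed signals the 4-week mean of *Melk* (-0.05) did not.

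Genes of the spindle and of cytokinesis were less uniform, with 4 of 7 lower and 1 higher at 4 weeks and 5 higher at 8 weeks. These are 57.1%, 14.3% and 71.4%, against 16.6%, 21.7% and 20.4% of all genes. *Prc1*, which bundles the microtubules of the midzone, was at -0.36 and 0.31, and the cytokinesis kinesins *Kif20a* (-0.23 and 0.23) and *Kif23* passed the test at both times as well. With median centring the 8-week mean of *Prc1* was 0.07 and did not pass (adjusted p = 0.62 in limma), and with the processed signals that of *Kif23* (1.02) did not. The *Kif23* probe was above background at 4 weeks on 0 arrays in the DEP channel and 1 in the control channel, so the size of its fall there is uncertain. *Nusap1*, which links the spindle to chromosomes, fell at 4 weeks (-0.50) and was at -0.01 at 8 weeks (0.38 with the processed signals, not called in either case). *Kif11*, the kinesin that pushes spindle poles apart, was not well above background on any array at 4 weeks and rose at 8 weeks (0.26). Both *Kif11* and *Kif23* were bright enough to be tested only because of the DEP channel at 8 weeks, where they were called higher. Their calls are therefore not independent of the brightness filter. The counts of genes higher at 8 weeks and in the difference include both. So does the count of genes with every 4-week array below every 8-week array. *Kif23* is also among the 13 members called lower at 4 weeks and higher at 8 weeks.

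A pair of spindle genes and *Foxm1* did not share the fall. *Hmmr*, a spindle and hyaluronan-binding protein, was higher at both times (0.19 at 4 weeks, adjusted p = 0.041, and 0.31 at 8 weeks), although with median centring its 4-week mean of 0.16 did not pass. *Tpx2*, which activates Aurka at the spindle, did not pass at its brightest probe (0.16 and -0.21, with 0.70 at 4 weeks passing with the processed signals), while its other probe, on another transcript, fell at 4 weeks (-0.95, adjusted p = 0.0051). *Foxm1*, a transcription factor of mitosis genes, was at -0.06 and 0.17 and passed at neither time. Its 8-week mean passed under the other scalings, with 0.19 (median centring) and 0.59 (processed signals).

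**Figure D3:**
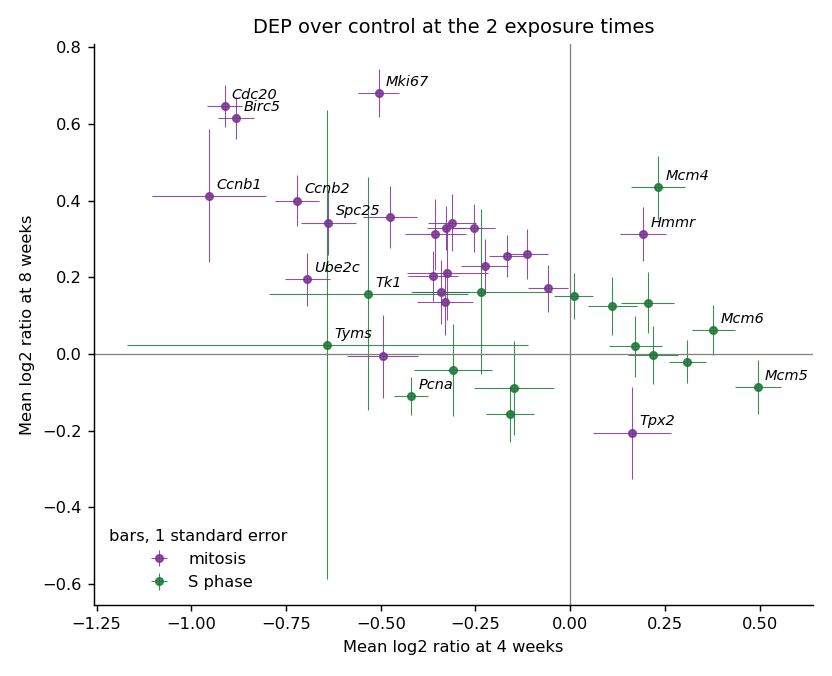
Mean log2 ratio at 8 weeks (vertical axis) against that at 4 weeks (horizontal axis) for the 39 tested genes, with bars of 1 standard error. Of the 23 mitosis genes, 20 lie at upper left, below 0 at 4 weeks and above 0 at 8 weeks, with *Cdc20* (-0.91, 0.65) and *Birc5* (-0.88, 0.62) far from the origin, while *Mcm5* (0.49, -0.09) and *Mcm6* (0.38, 0.06) lie to the right.

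Calls among the S-phase genes went both ways at 4 weeks, with 5 higher and 2 lower. These are 31.2% and 12.5% of the 16 tested, against 21.7% and 16.6% of all genes. With so few genes these counts are not read as a change of the S-phase genes as a set. The processed signals gave 8 higher and 1 lower, and median centring 3 of each. The helicase subunits *Mcm2* to *Mcm7* were all above 0 in their means at 4 weeks, and 4 of these 6 rose, against 21.7% of all genes. *Mcm5* had ratios of 0.54, 0.58, 0.44 and 0.42 at 4 weeks and 0.07, -0.25 and -0.08 at 8 weeks. Its 4-week arrays all lay above its 8-week arrays, with a rise at 4 weeks (adjusted p = 0.00075) and a difference between times of -0.58 (standard error 0.09, adjusted p = 0.0033). *Mcm6* had ratios of 0.54, 0.43, 0.27 and 0.27, then 0.06, 0.08 and 0.05, and was likewise higher at 4 weeks on every array. *Mcm4* rose at both times, with ratios of 0.39, 0.29, 0.10 and 0.14 at 4 weeks and 0.28, 0.41 and 0.62 at 8 weeks, where its mean with median centring was 0.20 and did not pass (adjusted p = 0.094 in limma). *Mcm3* (0.22, adjusted p = 0.033) rose at 4 weeks, and *Mcm7* (0.20) and *Mcm2* (0.17) did not pass the test. With the processed signals *Mcm2* was at 0.51 at 4 weeks and passed, and with median centring *Mcm3* (0.16) and *Mcm4* (0.15) did not pass at that time. At 8 weeks the means of *Mcm2*, *Mcm3*, *Mcm6* and *Mcm7* changed sign with the scaling, and none of them passed the test under any scaling tried.

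*Pcna*, the sliding clamp of replication, went against the helicase at 4 weeks. Its ratios were -0.39, -0.39, -0.39 and -0.51 at 4 weeks and -0.12, -0.12 and -0.09 at 8 weeks. It fell at 4 weeks by 0.42 on the log2 scale (adjusted p = 0.00034), and the 8-week mean of -0.11 did not pass (adjusted p = 0.13). With median centring it was lower at 8 weeks too (-0.43, adjusted p = 0.0022), and the difference between times of 0.31 became 0.10 and did not pass. *Gins1*, a subunit of the GINS complex that works with MCM, was also lower at 4 weeks (-0.31, adjusted p = 0.049, not passed with the processed signals), and *Gins2* was at -0.24 with one array at -1.10. *E2f1*, the transcription factor of S-phase entry, had ratios of 0.36, 0.35, 0.19 and 0.34 at 4 weeks and 0.03, -0.09 and 0.00 at 8 weeks, and rose at 4 weeks (adjusted p = 0.0025). Its control channel was above background on only 1 array at 4 weeks. *Cdt1*, which loads MCM onto origins, and *Ccne1*, cyclin E1, passed at neither time, although with the processed signals both did at 4 weeks (0.29 each) and *Ccne1* at 8 weeks (0.22).

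None of the 4 genes of nucleotide supply (*Rrm1*, *Rrm2*, *Tyms* and *Tk1*) passed the test at either time. With median centring *Rrm1*, a subunit of ribonucleotide reductase, was lower at both (-0.24 and -0.34). The mean of *Tyms*, thymidylate synthase, at 4 weeks was -0.64, but its ratios were 0.40, 0.15, -3.17 and 0.06, so replicate 3 alone set it. *Tk1*, thymidine kinase, behaved alike, with -0.17, -0.04, -1.78 and -0.14. On replicate 3 the control channel held a log2 intensity of 10.14 for *Tyms* against 6.27 to 6.57 on the other 4-week arrays, and of 9.47 for *Tk1* against 7.31 to 7.39. The DEP channel of that array held 6.97 against 6.63 to 6.69, and 7.69 against 7.22 to 7.27. The highest *Ccnb1* control level, 8.65 against 7.63 to 7.70, was on the same array. For *Gins2* the high control level was on replicate 1 (8.03 against 6.37 to 6.51).

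Each array holds both RNAs, so the levels of each channel were compared between the times. Loess and quantile scaling of the mean intensity put the channels of all arrays on one log2 scale, which still carries the slide. The mice of 8 weeks, control and DEP alike, were also older at the end. Slide, age and length of treatment cannot be told apart in this comparison. In the control channel 13 of 23 mitosis genes were lower at 8 than at 4 weeks and 0 higher, against 11.8% lower and 21.6% higher among all genes. In the DEP channel 14 were higher at 8 weeks and 0 lower, against 23.7% higher and 17.8% lower among all genes. Among the 14 is *Kif23* (0.30), whose rise in this channel is not independent of the brightness filter. The median change from 4 to 8 weeks was -0.34 in the control and 0.42 in the DEP channel, and over all genes it was 0.02 in both. Median centring gave the same counts, and the processed signals gave 12 lower and 1 higher in the control and 15 higher in the DEP channel. In S phase 3 genes were lower and 2 higher in the control channel and 4 lower and 0 higher in the DEP channel. With the processed signals 9 were lower and 1 higher in the DEP channel, with a median change of -0.35 in place of -0.12.

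*Cdc20* had control levels of 9.26, 9.35, 9.19 and 9.37 at 4 weeks and 8.18, 8.23 and 8.20 at 8 weeks, a change of -1.09 (adjusted p = 3.6e-05). Its DEP levels were 8.26, 8.43, 8.25 and 8.57, then 8.82, 8.90 and 8.83, a change of 0.47 (adjusted p = 0.0031). *Birc5* changed by -0.80 in the control (adjusted p = 0.00026) and by 0.70 in the DEP channel (adjusted p = 6.7e-05), and *Mki67* by -0.62 and 0.57 (adjusted p = 0.00047 and 0.00093). *Ccnb1* rose by 0.81 in the DEP channel (adjusted p = 2.5e-05), and its control change of -0.55 did not pass the test (adjusted p = 0.15). *Ube2c*, *Aurka* and *Plk1* were lower at 8 weeks in the control channel (-0.73, -0.39 and -0.40), and their DEP changes did not pass (0.16, 0.08 and 0.25). *Mcm5* went the other way in both channels, with 0.20 in the control (adjusted p = 0.030) and -0.38 in the DEP channel (adjusted p = 0.0049).

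**Figure D4:**
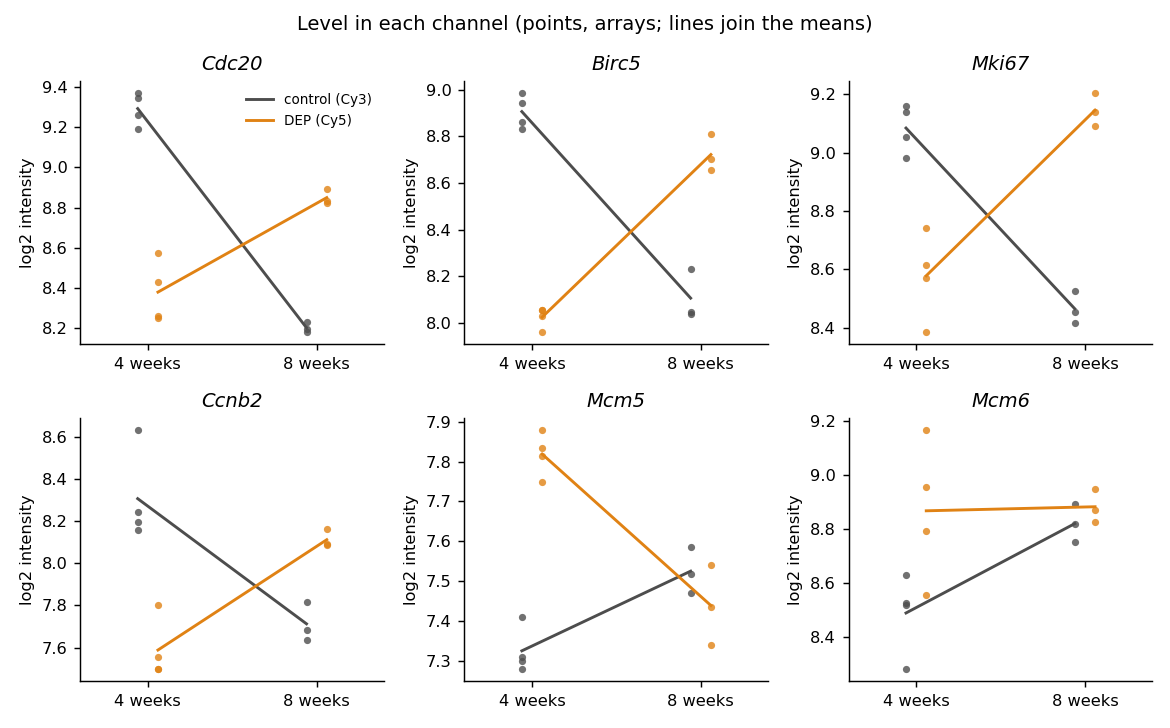
Log2 intensity (vertical axis, a separate scale for each gene that does not start at 0) of 4 mitosis genes and 2 S-phase genes in the control and DEP channels at 4 and 8 weeks; points are arrays and lines join means. For *Cdc20*, *Birc5*, *Mki67* and *Ccnb2* the control lies above DEP at 4 weeks and below it at 8 weeks, and *Mcm5* crosses in the opposite sense.

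Many late-cycle promoters carry a cell cycle genes homology region (CHR) near the start site, bound by the DREAM and MuvB complexes, together with CCAAT boxes bound by NF-Y, while E2F sites mark S-phase promoters. Promoter windows from RefSeq (GRCm38.p6, 250 bases before to 50 after the start) were at hand for 40 of the 49 genes. The letters TTTGAA (CHR) were found on either strand in 19 of 26 mitosis windows (73.1%), in 1 of 14 S-phase windows (7.14%, that of *Mcm2*) and in 18.1% of the windows of 27025 genes. Most of the mitosis windows with a match held it only after the start, since 9 of 26 (34.6%) held one that begins before it, against 16.4% of all genes. The variant TTCGAA was found in 11.5%, 7.14% and 1.57%. CCAAT was found in 20 of 26 (76.9%), 8 of 14 (57.1%) and 37.9%. The E2F letters TTCCCGC or TTGGCGC were found in 3 of 26 (11.5%), 7 of 14 (50%) and 6.93%. Of the 17 windows of mitosis genes that fell at 4 weeks, 12 held the CHR letters (70.6%), while those of *Birc5*, *Melk* and *Nusap1* held none of the letters searched. CCAAT and TTGGCGC can overlap, since the reverse complement of the latter ends in CCAA. These matches describe the letters and not binding, and they were not used to choose the genes.

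The 120 bases before the start are given for 5 genes that fell at 4 weeks and for *Mcm5* and *Mcm6*. These are the helicase genes whose difference between the times passed the test with loess. Capitals mark the CHR, CCAAT and E2F letters on either strand. The stretches are chr4:118437344-118437463 (*Cdc20*, minus strand), chr13:100786487-100786606 (*Ccnb1*, minus), chr9:70421555-70421674 (*Ccnb2*, minus), chr7:135716380-135716499 (*Mki67*, minus), chr2:164769809-164769928 (*Ube2c*, plus), chr8:75109389-75109508 (*Mcm5*, plus) and chr1:128359706-128359825 (*Mcm6*, minus), each written 5′ to 3′ on the strand of the gene.
Cdc20: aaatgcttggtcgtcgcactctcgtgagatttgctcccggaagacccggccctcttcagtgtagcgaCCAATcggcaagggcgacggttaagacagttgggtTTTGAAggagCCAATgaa
Ccnb1: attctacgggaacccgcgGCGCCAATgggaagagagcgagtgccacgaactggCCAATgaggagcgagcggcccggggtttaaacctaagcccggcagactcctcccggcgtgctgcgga
Ccnb2: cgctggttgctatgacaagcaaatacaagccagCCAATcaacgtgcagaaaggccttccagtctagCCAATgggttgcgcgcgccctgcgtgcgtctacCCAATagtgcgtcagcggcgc
Mki67: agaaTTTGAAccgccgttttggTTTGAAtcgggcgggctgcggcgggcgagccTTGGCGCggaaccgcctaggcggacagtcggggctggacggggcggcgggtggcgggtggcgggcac
Ube2c: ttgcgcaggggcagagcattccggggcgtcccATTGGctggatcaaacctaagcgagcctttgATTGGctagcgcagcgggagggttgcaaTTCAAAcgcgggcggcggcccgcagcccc
Mcm5: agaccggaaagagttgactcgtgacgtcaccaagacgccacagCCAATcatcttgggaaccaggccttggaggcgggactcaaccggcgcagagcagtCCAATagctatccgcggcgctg
Mcm6: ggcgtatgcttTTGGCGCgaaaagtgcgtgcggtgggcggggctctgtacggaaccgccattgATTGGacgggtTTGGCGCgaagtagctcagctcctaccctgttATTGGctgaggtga
The CHR letters begin 18 bases before the start in *Cdc20*, 29 in *Ube2c*, and 116 and 98 in *Mki67*. *Ccnb1* and *Ccnb2* show CCAAT boxes here and no CHR letters in this stretch (those of *Ccnb2* lie outside it), and in *Ccnb1* the E2F letters overlap a CCAAT box. *Mcm6* holds TTGGCGC at 109 and 46 bases before the start and the CCAAT letters on the opposite strand, and *Mcm5* shows CCAAT alone, with TTGGCGC farther upstream.

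Further genes of the cycle were taken from lists that do not include the 49. Of 54 other mitosis genes tested (85 listed), 20 were lower and 3 higher at 4 weeks, and 2 lower and 15 higher at 8 weeks. These are 37% and 5.56%, then 3.7% and 27.8%, against 16.6% and 21.7%, then 17% and 20.4%, of all genes. The medians of this list were -0.17 and 0.16. *Anln*, anillin of the contractile ring, was at -0.61 and 0.65, and *Kif20b* (-0.73, SD 0.70), *Ect2* (-0.60) and *Aspm* (-0.56) fell at 4 weeks. At that time the *Kif20b* probe was above background on 1 array in the DEP channel and 2 in the control channel. That of *Aspm* was above background on 2 in each, so the size of both falls is uncertain. *Zwint*, a kinetochore protein, fell at both times (-0.42 and -0.92). Of 59 other S-phase genes tested (74 listed), 5 were lower and 9 higher at 4 weeks and 2 lower and 11 higher at 8 weeks. These shares (8.47% and 15.3%, then 3.39% and 18.6%) lie below those of all genes. Among them *Ung*, which removes uracil from DNA, was at 1.26 and 1.38, and *Mms22l*, a repair factor of stalled forks, at 1.12 and 1.24.

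Genes that act before S phase or hold the cycle back were counted too. Of 18 G1 cyclins, kinases and pocket proteins, 2 were lower and 1 higher at 4 weeks and 1 lower and 4 higher at 8 weeks. These are 11.1% and 5.56%, then 5.56% and 22.2%, against 16.6% and 21.7%, then 17% and 20.4%, of all genes. Of 25 inhibitors of the cycle and targets of p53, 11 were lower and 4 higher at 4 weeks and 4 lower and 8 higher at 8 weeks, with medians of -0.22 and 0.13. *Cdkn1a*, the inhibitor p21, fell at 4 weeks (-0.49, adjusted p = 0.0060) along with the mitosis genes, and was at 0.13 at 8 weeks. *Mdm2*, the ubiquitin ligase of p53, rose at both times (0.34 and 0.54). The proliferation inhibitor *Btg2* was at -0.40 and 0.43, and both passed the test.

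**Figure D5:**
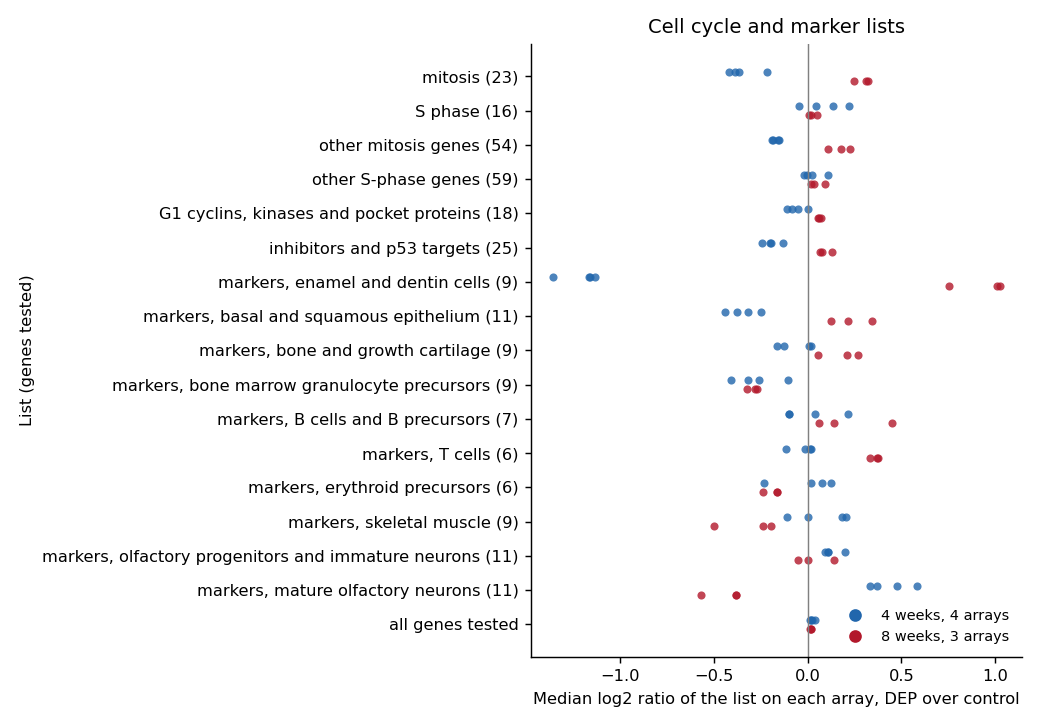
Median log2 ratio of DEP over control on each array (horizontal axis) for the lists of cell cycle genes and of cell type markers (vertical axis, with the number of genes tested); points are arrays. Enamel and dentin markers (medians of -1.36 to -1.14 at 4 weeks and 0.76 to 1.03 at 8 weeks) and basal and squamous epithelium markers change sign like the mitosis genes, mature olfactory neuron markers change sign the other way (0.33 to 0.58, then -0.57 to -0.38), and all genes stay near 0.

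Markers of several cell types moved together with the mitosis genes, and their part in the result was not tested. Of 9 enamel and dentin markers 7 were lower at 4 weeks (77.8%) and 8 higher at 8 weeks (88.9%). Of all genes, 16.6% were lower at 4 weeks and 20.4% higher at 8 weeks. *Ambn*, ameloblastin, was at -2.41 and 1.52. Their summed intensity at 4 weeks was 5710 to 6340 in the DEP and 16730 to 18090 in the control channel, and at 8 weeks 80900 to 104700 and 46070 to 46830. In the control channel this sum was higher at 8 than at 4 weeks, whereas that of the mitosis genes was lower (3791 to 4261 against 5277 to 5401). In the DEP channel both sums were higher at 8 weeks, that of the mitosis genes with 4936 to 5205 against 3571 to 3921.

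Of 11 basal and squamous epithelium markers, 7 were lower and 2 higher at 4 weeks and 1 lower and 6 higher at 8 weeks. These are 63.6% and 18.2%, then 9.09% and 54.5%, against 16.6% and 21.7%, then 17% and 20.4%, of all genes. *Krt14*, a keratin of basal cells, was at -0.54 and 0.73, whereas *Krt5*, its partner, passed at neither time (0.16 and 0.05). The summed intensity of these markers was 22250 to 28070 in the DEP and 22380 to 25810 in the control channel at 4 weeks, and 31730 to 36710 and 27530 to 30170 at 8 weeks. Of 11 mature olfactory neuron markers, 8 were higher at 4 weeks, and 8 were lower and 1 higher at 8 weeks, with *Omp*, the olfactory marker protein, at 0.89 and -0.43. Their summed intensity was 154100 to 168200 against 85310 to 100500 at 4 weeks and 103300 to 109400 against 140300 to 156200 at 8 weeks, in DEP against control.

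Markers of other cells that divide or could be in the tissue were counted too. Of all genes, 16.6% were lower and 21.7% higher at 4 weeks, and 17% and 20.4% at 8 weeks. Several of these short lists lie near those shares, such as skeletal muscle (22.2% and 33.3%) and T cells (16.7% and 16.7%) at 4 weeks. Such counts are not read as changes of those cell types. Of 11 genes of olfactory progenitors and immature neurons, 0 were lower and 3 higher at 4 weeks and 1 lower and 1 higher at 8 weeks. Of 9 granulocyte precursor genes of bone marrow 5 were lower and 1 higher at 4 weeks and 4 lower and 2 higher at 8 weeks, and the defining gene *Mpo* fell at both (-0.73 and -1.26). Of 6 erythroid precursor genes, 0 were lower and 2 higher, then 2 lower and 1 higher. B cell markers (7 tested) were lower in 2 and higher in 1 at 4 weeks and higher in 3 at 8 weeks, and T cell markers (6 tested) lower in 1 and higher in 1, then higher in 3. Bone and growth cartilage markers (9 tested) were lower in 4 and higher in 1, then higher in 4, and skeletal muscle markers (9 tested) lower in 2 and higher in 3, then lower in 4 and higher in 1. The part of these cell types in the change of the mitosis genes was not tested.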

How the data were processed

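The authors deposited 1 Feature Extraction file (version 10.10.1.1) per array, with intensity values of spots and backgrounds, and processed intensity values that the software background-subtracted and dye-normalized. The GeneSpring normalization of the methods was not used here. In limma 3.58.1 (R 4.3.3) median signals were background-corrected by normexp (offset 50, fitted without background outlier spots) and normalized by loess within arrays, with non-uniform spots left out and spots of a probe averaged. A probe needed a clear signal over background, in one or both channels, on 3 or more of the 7 arrays to be tested, as 25124 of 39429 did. One model was fitted with a mean per exposure time, moderated statistics and Benjamini-Hochberg adjustment at 0.05. A gene has the value of its brightest tested probe. Of all probes, 28330 were named through RefSeq accessions.

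The members and the lists were chosen with earlier results of these data known. Text names 7 fixed genes, the 6 largest called members per comparison, the other members by role and up to 4 called genes of other lists, plus markers. 1 of the marker genes is counted in its list and not reported by name here. On simulated arrays, 92% of 200 probes changed by 1 on the log2 scale were recovered at 4 weeks, and 45% of those changed by 0.5. The median fitted value of the former was 0.77, so ratios were understated there. Of unchanged probes 0.0281% were called. The simulation held no dye or slide effect, so this rate does not carry over to the calls above. The number of arrays limits the precision. Alternatives covered the background, scaling, filter, probes, weights, test, replicate block and each array left out.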

Additional observations from a re-analysis of the deposited data

Results flagged for a closer look

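The difference of the log2 ratios between 8 and 4 weeks passed the test in 24 members. Among the named genes it was 1.56 in *Cdc20*, 1.50 in *Birc5*, 1.37 in *Ccnb1*, 1.19 in *Mki67*, 1.12 in *Ccnb2*, 0.98 in *Spc25*, 0.89 in *Ube2c*, 0.83 in *Cenpe*, 0.50 in *Top2a* and 0.31 in *Pcna*. Each of these differences was tested in the model of all 7 arrays, and each is shared with the slide.

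Of 40 sets of 4 arrays examined at 4 weeks, 6 had one array far from the rest, where chance gives about 1 in 20. On replicate 3 these were *Tyms* (-3.17, others 0.06 to 0.40), *Tk1* (-1.78, others -0.17 to -0.04), *Mcm2* (-0.074, others 0.24 to 0.27) and *E2f1* (0.19, others 0.34 to 0.36). The others were *Gins2* on replicate 1 (-1.10, others -0.05 to 0.10) and *Pcna* on replicate 4 (-0.51, others all -0.39). All 6 are S-phase genes, and all lie on the low side.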

How the results depend on the processing

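Leaving out each array in turn gave 17 to 20 members lower and 3 to 6 higher at 4 weeks (3 without replicate 2 of 4 weeks and without replicate 2 of 8 weeks), 0 lower (0 to 0) and 10 to 16 higher at 8 weeks (10 without replicate 2 of 8 weeks), and 18 to 23 in the difference. The mean over arrays of the median was -0.39 to -0.33 and 0.28 to 0.32 in the mitosis genes (-0.35 and 0.29 with all arrays), and 0.05 to 0.13 and 0.01 to 0.03 in the S-phase genes (0.09 and 0.03 with all arrays), and the calls were 14 to 19 in the control and 12 to 21 in the DEP channel.

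Normexp fitted on all spots left 12 lower and 3 higher at 4 weeks and 11 calls in the DEP channel. The offset of 10 gave mitosis medians of -0.51 and 0.42. The processed signals gave 10 higher at 4 weeks, mitosis medians of -0.53 and 0.57 and S-phase medians of 0.30 and 0.050. Median centring gave 3 higher at 4 weeks, 2 lower and 9 higher at 8 weeks, and 8-week medians of 0.20 (mitosis) and -0.072 (S phase). No filter gave 3 higher at 4 weeks and a mitosis median of 0.21 at 8 weeks, and the mean over probes gave 0.25. Keeping probes that were above background for DEP and for control RNA on every array left 13 lower at 4 weeks, 10 higher at 8 weeks, 15 in the difference and 10 in the DEP channel, with mitosis medians of -0.57 and 0.39 and an S-phase median of 0.050 at 8 weeks; fewer genes were tested there. Array weights gave 4 lower at 8 weeks and 29 in the DEP channel, and the weights in one of the channel fits had not converged. The test that the methods name called 1 higher at 4 weeks, and its form paired within arrays 10 lower and 3 higher at 4 weeks and 1 higher at 8 weeks. *Mcm2* at 8 weeks, at 0.02 and not called, was -0.044 with processed signals, -0.068 with median centring, and -0.028 to 0.068 with single arrays left out (lowest without replicate 2 of 8 weeks). Beyond the constructions named, the cause was not tested.

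With the replicate number as a block, 15 members were called in the difference. Same-numbered arrays of the times did not deviate together (r = -0.0064, -0.0071 and 0.016), so the pairing has no support beyond the number. Signal over background limits 10 members that could not be tested, and the dim probes of *Kif11* and *Kif23*. Other members called at 4 weeks were also dim in the control channel at that time. This channel was above background on 1 array for *E2f1* and *Kif20a*. It was so on 2 arrays for *Cdk1*, *Top2a*, *Cenpa*, *Nusap1*, *Melk*, *Hmmr* and *Gins1*, so the size of these changes is less certain.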
